A study of Caenorhabditis elegans with 2 samples.

Results

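The 51 protein-coding genes of Caenorhabditis elegans whose names begin with vha- or vps- were examined for binding of NHR-6, among 19973 protein-coding genes on the nuclear chromosomes. They were taken by name from the Ensembl annotation of assembly WBcel235, and comprised 20 vha genes and 31 vps genes. Binding came from ChIP-seq, in which DNA bound to a protein is pulled down with it and sequenced, here for eGFP-tagged NHR-6, a nuclear receptor related to mammalian NR4A receptors. The samples were whole L4 larvae of mixed sex from strain OP90, which carries the unc-119(ed3) allele on chromosome III and the integrated transgene wgIs90 with the tagged nhr-6. All animals formed 1 group, sampled as 2 biological replicates, with no second condition to test against. The data are the authors' lists of peaks in build ce11, and read depth is unknown from such lists. Because the animals were whole, a peak cannot be assigned to a tissue, and whether the tagged protein binds as the endogenous one does was not tested.

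The V-ATPase is a rotary proton pump that acidifies lysosomes, endosomes and secretory compartments. Its soluble V1 sector splits ATP and its membrane V0 sector carries protons, and worm subunits of both are encoded by vha genes. The vps genes are named after yeast mutants that missort proteins bound for the vacuole, the yeast counterpart of the lysosome. Their products include the ESCRT complexes, which bud vesicles into endosomes, the retromer, which returns receptors from endosomes to the Golgi, and HOPS and CORVET, which tether endosomes and lysosomes before fusion. GARP and EARP tether vesicles that arrive at the Golgi or at recycling endosomes. The roles given for single vps genes below are those of their yeast and mammalian counterparts.

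Of the 51 genes, 19 had a promoter peak, which is a share of 37.3% (Wilson 95% interval 25.3 to 50.97%), whereas 10.5% of all protein-coding genes had one. A promoter peak here is a summit of the list that the authors thresholded for reproducibility (2720 peaks). It lies no more than 1000 bp before or 200 bp after the gene's annotated 5′ end. The share among members was 3.55 times that among all genes. It was 35% for vha genes (7 of 20, interval 18.1 to 56.7%) and 38.7% for vps genes (12 of 31, interval 23.7 to 56.2%). These intervals cover the counting of genes only, and no test of the list was made, since its genes were chosen with earlier results of these data known. Each peak carries a signal value given by the authors, on a scale that the labels and files do not name, and it serves below to describe and rank peaks within a list. Among the 19 genes the signal of the strongest promoter peak ranged from 29.8 to 105.97 with a median of 47.5, and 11 of them lay above the median of 41.9 over the 2097 genes with a promoter peak.

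**Figure D1:**
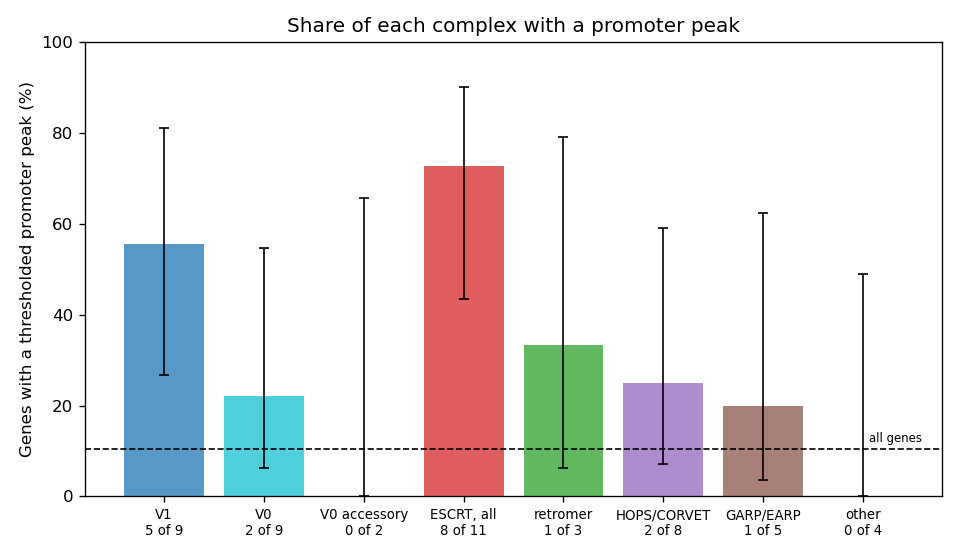
Bars give the percentage of genes in each complex with a thresholded promoter peak, with the counts under each bar and Wilson 95% intervals for the counting of genes. The dashed line is the 10.5% of all protein-coding genes. ESCRT, drawn for genes named vps only, stands at 72.7% and V1 at 55.6%, while V0 and HOPS/CORVET stand at 22.2% and 25%.

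The peaks were spread unevenly over the complexes. Of the 11 ESCRT genes named vps 8 had a promoter peak (72.7%, interval 43.4 to 90.3%). Of 7 further ESCRT genes not named vps, which are not members, 2 had one (28.6%). The 72.7% is therefore not the share of ESCRT as a whole. Of the 9 V1 genes 5 had one (55.6%, 26.7 to 81.1%). The V0 genes had one in 2 of 9 (22.2%, 6.32 to 54.7%) and the V0 accessory genes vha-19 and vha-20 in neither case. The retromer genes had one in 1 of 3 (33.3%), the HOPS and CORVET genes in 2 of 8 (25%, 7.15 to 59.1%) and the GARP and EARP genes in 1 of 5 (20%). None of the 4 remaining vps genes (vps-13, vps-15, vps-34 and vps-45) had one, with a Wilson upper limit of 49.0%. The intervals of V1 and V0 overlap, as do those of ESCRT and of HOPS and CORVET, and the differences between complexes were not tested.

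The sequences around the summits show what lay under these peaks. Those below run from 50 bases before the summit to 50 after it, read 5′ to 3′ on the strand of the gene from the RefSeq genome of WBcel235 (ce11). All are on the plus strand except vps-60, on the minus strand. They were chosen to show the V1 and V0 peaks beside peaks of ESCRT, retromer and HOPS genes, and windows touching an annotated untranslated region were left out. Capitals mark matches, on either strand, to any of 9 short sites that were sought at all summits.
vha-12 (chrX:4190748-4190848): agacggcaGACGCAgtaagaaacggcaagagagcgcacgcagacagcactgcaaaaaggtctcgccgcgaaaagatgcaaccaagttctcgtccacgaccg
vha-14 (chrIII:9507913-9508013): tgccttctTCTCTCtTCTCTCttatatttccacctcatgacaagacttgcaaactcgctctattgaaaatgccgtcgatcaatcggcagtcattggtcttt
vha-15 (chrX:2237578-2237678): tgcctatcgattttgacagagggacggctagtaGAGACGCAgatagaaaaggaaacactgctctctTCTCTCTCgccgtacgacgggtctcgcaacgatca
vha-8 (chrIV:6790562-6790662): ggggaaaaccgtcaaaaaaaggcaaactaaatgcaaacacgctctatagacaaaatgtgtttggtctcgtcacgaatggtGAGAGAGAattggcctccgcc
vha-1 (chrIII:9780762-9780862): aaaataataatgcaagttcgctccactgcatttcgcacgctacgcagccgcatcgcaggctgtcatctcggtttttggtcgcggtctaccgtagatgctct
vps-60 (chrV:8606421-8606521): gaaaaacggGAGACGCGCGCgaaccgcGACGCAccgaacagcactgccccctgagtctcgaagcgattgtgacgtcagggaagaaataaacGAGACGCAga
vps-37 (chrV:5592449-5592549): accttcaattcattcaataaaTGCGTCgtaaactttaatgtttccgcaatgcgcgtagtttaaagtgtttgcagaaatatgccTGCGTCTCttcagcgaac
vps-35 (chrII:5907649-5907749): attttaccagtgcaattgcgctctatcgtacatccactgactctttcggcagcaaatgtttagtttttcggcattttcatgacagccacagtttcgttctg
vps-33.1 (chrIII:8700722-8700822): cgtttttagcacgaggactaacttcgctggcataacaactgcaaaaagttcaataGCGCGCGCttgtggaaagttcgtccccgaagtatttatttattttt

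Each site was present at few member summits, and differences between vha and vps genes were not tested. The repeat GAGAGA lay within 50 bp of 4 of the 7 vha summits, those of vha-8, vha-14, vha-15 and vha-16, and of 0 of the 13 vps summits. That makes 20% of the 20 member summits, against 27.3% of all 2720 thresholded summits. Member summits all lie in promoter windows, and over the 1568 thresholded summits in such windows the share was 22.6%. GCGCGC lay at 4 vps summits, those of vps-4, vps-33.1, vps-51 and vps-60, and at 0 vha summits. That is again 20% of member summits, against 7.61% of all and 10.3% of those in promoter windows. Within 100 bp neither site was limited to one family, since GAGAGA then lay at vha-13 and vps-60 as well and GCGCGC at vha-13 as well. GACGCA lay at 6 of the 20 member summits (30% against 16.5%), those of vha-12, vha-15, vps-25, vps-33.2, vps-37 and vps-60. CGTCTC lay at 4 (20% against 19.04%), those of vha-15, vps-33.2, vps-37 and vps-60. Its reverse complement GAGACG overlaps GACGCA in the run GAGACGCA, which stands in each of these 4 windows on one strand or the other. The AP-1 site TGACTCA lay at 1 summit, that of vps-4 (5% against 4.34%). Over summits in promoter windows the shares were 17.6% for GACGCA, 17.98% for CGTCTC and 3.32% for TGACTCA.

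The sites of NHR-6's own receptor family were not found at these summits. The NR4A monomer site AAAGGTCA and its core AGGTCA, which it contains, were at 0 of 20, which allows a share of up to 15%, against 0.735% and 3.71% of all thresholded summits. The E-box CACGTG and the longer TCACGTGA, a form of the site bound by HLH-30, the worm counterpart of the lysosomal regulator TFEB, were also at 0 of 20, against 3.86% and 0.331%. With 20 summits, a share as low as those of the whole list could not be told from 0. At 8 summits none of the 9 sites was present, as at 46.3% of all thresholded summits. The GC content of the windows ranged from 34.7 to 58.4% with a median of 45.0%. The median was 45.5% over all thresholded summits and 46.5% over those in promoter windows.

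**Figure D2:**
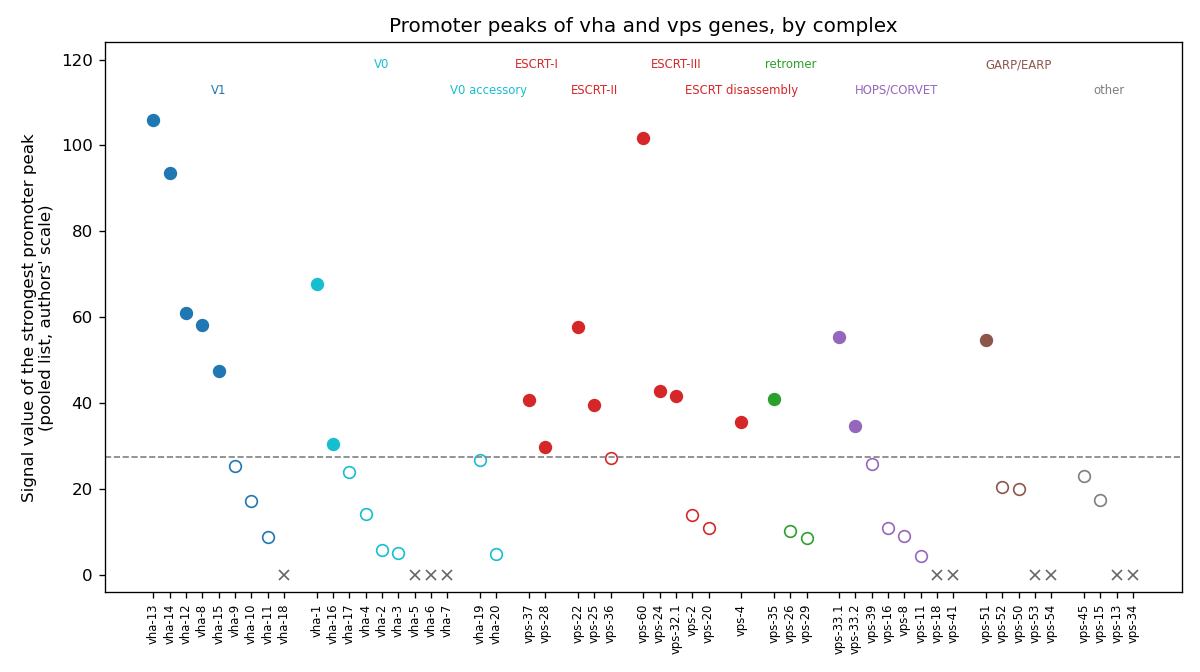
Each point is 1 gene, placed by complex, with the authors' signal value of its strongest promoter peak in the pooled list on the vertical axis. Filled points are in the thresholded list, open points only in the relaxed pooled list, crosses at 0 have no pooled promoter peak, and the dashed line is the lowest signal of the thresholded list, 27.5; vha-13, vps-60 and vha-14 stand above 90.

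In the V1 sector both genes of the nucleotide-binding ring had a promoter peak. vha-13 (WBGene00013025), which encodes subunit A, the catalytic one, had a summit 557 bp upstream with a pooled signal of 105.97, rank 54 of the thresholded list. The matching peak ranked 65 in replicate 1 with a signal of 56.0 and 81 in replicate 2 with a signal of 51.3. The peak, at chromosome V 14351106 to 14351227, lay in the annotated 3′ untranslated region of cept-2, the gene before it on the same strand, which ends 226 bp before vha-13. vha-12, for subunit B, the partner of A in the ring that binds nucleotides, had a pooled signal of 60.9 (rank 398) 296 bp upstream. Its peak ranked 981 in replicate 1 with a signal of 23.98 and 154 in replicate 2 with a signal of 43.6, so it stood higher in replicate 2.

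The genes of the V1 shaft and stalks varied. vha-14 (WBGene00010130), for subunit D of the central shaft, had a pooled signal of 93.7 (rank 88) 137 bp upstream, with rank 230 in replicate 1 (signal 38.01) and rank 49 in replicate 2 (signal 56.7). In the pooled list and in both replicates it stood above vha-12. vha-8, for subunit E of the outer stalk, had 58.1 (rank 454) 462 bp upstream, with rank 945 in replicate 1 (signal 24.3) and 435 in replicate 2 (signal 32.01). vha-15, 1 of 2 genes for subunit H, had 47.5 (rank 851) 283 bp upstream, with rank 651 in replicate 1 (signal 27.8) and 1800 in replicate 2 (signal 18.2). All 5 V1 peaks were among the 2720 strongest of each replicate. The other H gene, vha-18, had no promoter peak in the pooled list, and the remaining V1 genes had weak pooled peaks outside the thresholded list, vha-9 (subunit F) with 25.3, vha-10 (subunit G) with 17.2 and vha-11 (subunit C) with 8.82.

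In the V0 sector peaks stood at 1 gene of the proton ring and at the gene for subunit d. vha-1 (WBGene00006910), which encodes a ring subunit c, had a pooled signal of 67.7 (rank 290) 442 bp upstream, with rank 223 in replicate 1 (signal 38.3) and 733 in replicate 2 (signal 26.7). That peak lies between vha-1 and the divergent gene sqv-3, a galactosyltransferase gene, in the windows of both. vha-16, for subunit d, which links the ring to the shaft, had only 30.6 (rank 2266) 214 bp upstream, and its replicates disagreed, with rank 1262 in replicate 1 (signal 21.6) and 5987 in replicate 2 (signal 9.03). By the strongest peaks of replicate 2 alone, V0 had 1 gene with a peak. With a window reaching 2000 bp upstream, or with peaks whose interval overlapped the window by at least 1 bp, the strongest peak of vha-16 was another one, of signal 47.2. The other ring genes had weak relaxed peaks in the pooled list, vha-4 with 14.1, vha-2 with 5.72 and vha-3 with 5.003, and vha-17, for the small subunit e, had 24.03.

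The genes for the large V0 subunit a, of which worms have several used in different tissues, had no thresholded promoter peak. vha-5 had no pooled promoter peak and a single relaxed one of signal 3.45 in replicate 2, rank 22505. vha-6, which acts in the intestine, had no pooled promoter peak and a relaxed one of 7.49 in replicate 1, rank 7212. vha-7 had none in any list. unc-32, another gene for this subunit, which is not named vha, had a relaxed pooled peak and no thresholded one.

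Among the ESCRT genes named vps, peaks were present in ESCRT-I, ESCRT-II and ESCRT-III and at vps-4. Both ESCRT-I genes named vps had one. vps-37 had a pooled signal of 40.6 (rank 1235) 201 bp upstream, with rank 1234 in replicate 1 (signal 21.9) and 2341 in replicate 2 (signal 15.9). vps-28 had 29.8 (rank 2359) 183 bp upstream, the weakest of the 19 genes, and ranked 1926 in replicate 2 (signal 17.7) but only 10197 in replicate 1 (signal 5.78).

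Of the 3 ESCRT-II genes, 2 had a peak. vps-22 had a pooled signal of 57.7 (rank 470) 599 bp upstream, with rank 419 in replicate 1 (signal 31.9) and 800 in replicate 2 (signal 25.9). The annotated 5′ end of vps-22 lies inside C27F2.9, whose window holds the same peak. vps-25 had 39.5 (rank 1330) 6 bp upstream, with ranks 1932 (signal 17.5) and 1772 (signal 18.3), and shared it with the divergent gene uba-2, which encodes a subunit of the SUMO-activating enzyme. vps-36 fell just short of the thresholded list, with a pooled signal of 27.1 where the list's lowest is 27.5, and ranked 3161 and 3171 in the replicates.

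ESCRT-III, whose subunits polymerise to cut the vesicle neck, held the strongest vps peak. vps-60 (WBGene00018290), the counterpart of CHMP5, had a pooled signal of 101.7 (rank 66) 343 bp upstream at chromosome V 8606386 to 8606566, in intergenic sequence. It ranked 89 in replicate 1 (signal 49.98) and 105 in replicate 2 (signal 48.9), so both replicates placed it high. vps-24, the counterpart of CHMP3, had 42.8 (rank 1103) 32 bp upstream, but ranked 430 in replicate 1 (signal 31.7) and 6266 in replicate 2 (signal 8.76). vps-32.1, a counterpart of CHMP4, was the only member with 2 thresholded summits in its window. They lay 644 and 153 bp upstream with pooled signals of 41.7 and 27.7. A window of 500 bp upstream, or assignment to the nearest 5′ end, kept only the weaker one. Both summits were in the window of the divergent gene icd-1, which encodes a subunit of the nascent polypeptide-associated complex.

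The ATPase that takes ESCRT-III apart, vps-4, had a pooled signal of 35.6 (rank 1666) 236 bp upstream and ranked 2248 in replicate 1 (signal 16.3) and 1987 in replicate 2 (signal 17.3). The remaining ESCRT-III genes had relaxed pooled peaks only, vps-2 with 13.98 and vps-20 with 10.9.

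Outside ESCRT, 4 of 20 vps genes had a promoter peak. In the retromer vps-35, its central scaffold, had a pooled signal of 40.9 (rank 1206) 117 bp upstream, with rank 2664 in replicate 1 (signal 14.8) and 887 in replicate 2 (signal 24.7). Its partners vps-26 and vps-29 had relaxed pooled peaks of 10.3 and 8.62. In HOPS and CORVET, vps-33.1, the SM protein that guides SNARE assembly, had 55.4 (rank 538) 155 bp upstream, with ranks 1014 (signal 23.7) and 453 (signal 31.7), and shared the peak with the divergent gene sdz-1. vps-33.2, the counterpart of mammalian VPS33B, had 34.7 (rank 1741) 20 bp upstream, with ranks 2319 (signal 15.9) and 1612 (signal 19.1), and its summit lies in an intron of epg-5, an autophagy gene whose body holds the annotated 5′ end of vps-33.2.

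vps-51, of GARP and EARP, had a pooled signal of 54.6 (rank 567) 254 bp upstream, with rank 1751 in replicate 1 (signal 18.5) and 616 in replicate 2 (signal 28.5). The peak is shared with the divergent gene lin-35, which encodes the worm retinoblastoma protein. vps-52 and vps-50 had relaxed pooled peaks of 20.5 and 20.02, and vps-53 and vps-54 had no promoter peak in any list.

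**Figure D3:**
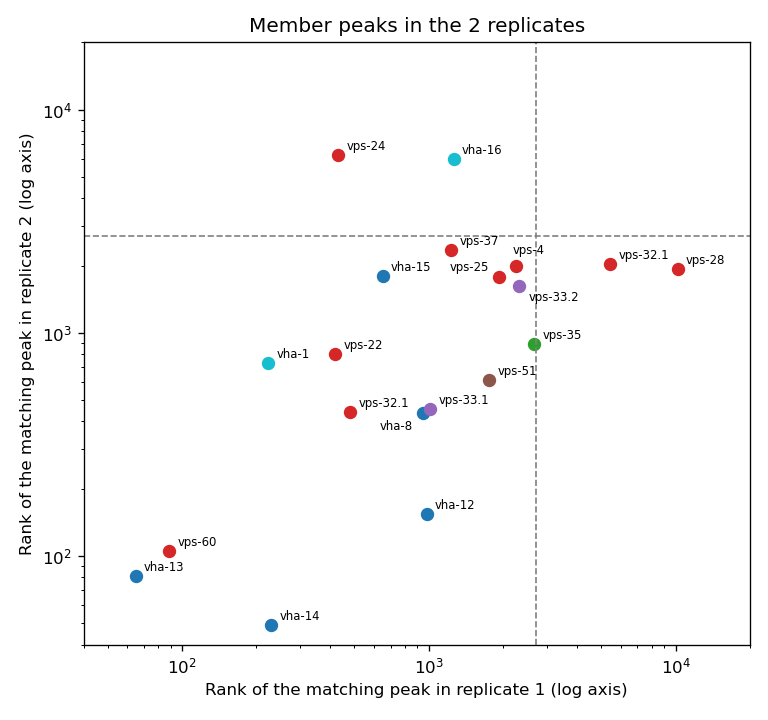
Each point is 1 of the 20 thresholded promoter peaks of the members, placed by the rank of the matching peak in the relaxed list of replicate 1 and of replicate 2, both on log axes where a low rank is a strong peak. Dashed lines mark rank 2720; vha-16 and vps-24 lie past it in replicate 2, and vps-28 and the weaker vps-32.1 peak in replicate 1.

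The replicates placed most of these peaks high but did not order them alike. Counting only the 2720 strongest peaks of each replicate, 21 members had a promoter summit in replicate 1 (41.2%), 18 in replicate 2 (35.3%) and 16 in both (31.4%). Over all protein-coding genes the shares were 9.99%, 9.91% and 6.48%. The 16 were all among the 19 members with a thresholded peak. Of the other 3, vha-16 and vps-24 were among the strongest of replicate 1 alone and vps-28 among those of replicate 2 alone, so their place in the thresholded list rests on 1 replicate more than the other. Across the 20 peaks Spearman's rho between the replicate signals was 0.56, given as a description across peaks that were all selected for high pooled signal. The thresholded list was derived from lists that include both replicates, so presence in both is not independent of membership in it. The strongest peak of each of the 19 genes held the same rank in the pooled list. A place in the thresholded list therefore does not show that both replicates ranked a peak high.

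Most members without a thresholded peak had a weaker one. In the relaxed pooled list 41 of 51 members had a promoter summit (80.4%), against 41% of all protein-coding genes. In the relaxed list of replicate 1, 37 of 51 members had one, against 7753 of 19973 protein-coding genes (38.8%). In that of replicate 2, 41 of 51 had one, against 8363 of 19973 (41.9%). Among the 22 members with a relaxed pooled peak but no thresholded one, the signal ranged from 4.37 to 27.1 with a median of 14.1. The strongest of them were vps-36 with 27.1, vha-19 with 26.6, vps-39 with 25.9, vha-9 with 25.3, vha-17 with 24.03 and vps-45 with 23.1. These 6 had the highest −log10 q-value of the pooled list, 3.91, as all thresholded peaks do, so the q-value does not separate them from those. vps-39, which marks HOPS, ranked 1943 in replicate 1 and 3972 in replicate 2, and vps-45, an SM protein of endosome fusion, ranked 1964 and 18595.

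The 6 members with no promoter peak in any list were vha-7, vps-13, vps-34, vps-41, vps-53 and vps-54. vps-34 encodes the phosphatidylinositol 3-kinase of endosomes and autophagy, and vps-13 a bridge-like lipid transfer protein. vha-5, vha-6, vha-18 and vps-18 had a promoter peak in the relaxed list of 1 replicate alone.

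**Figure D4:**
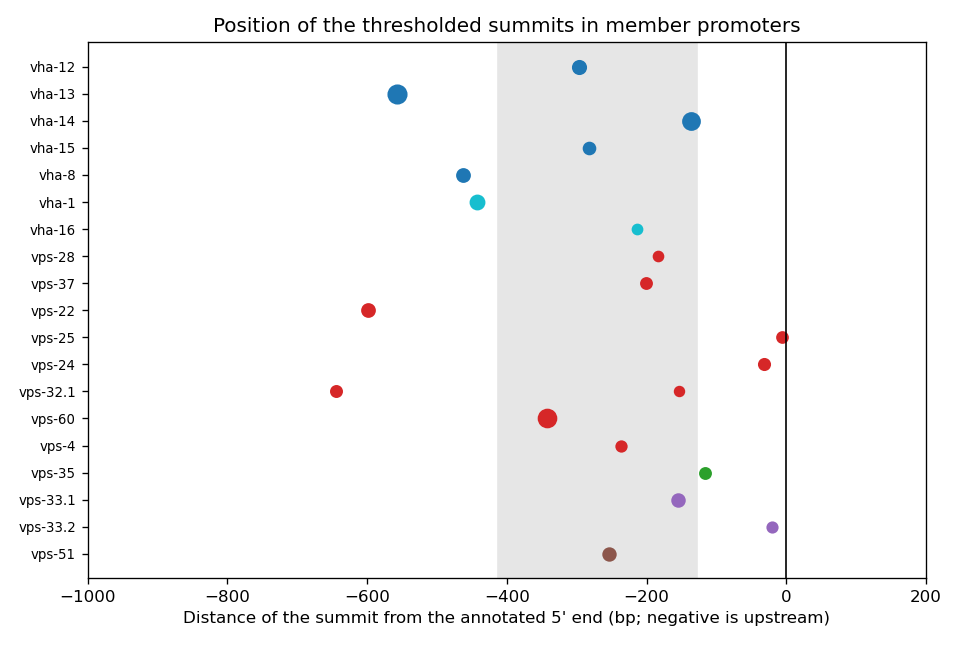
Points give the distance of each thresholded summit from the annotated 5′ end of the gene in bp, negative upstream, with larger points for higher pooled signal. The grey band spans the quartiles over all genes with a promoter peak, -413 to -128 bp; all 20 member summits lie upstream of the 5′ end.

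The summits lay upstream of the gene start in each case. The strongest summit of each of the 19 genes lay between 644 and 6 bp upstream, with a median of 236 bp. Over all genes with a promoter peak the median was 232 bp upstream. Both quartiles there were upstream as well, at -413 and -128 bp. Of the 20 summits 18 were intergenic, that of vha-13 was in a 3′ untranslated region of the gene before it and that of vps-33.2 in an intron of epg-5. The intergenic share over all promoter summits was not counted. None lay within 200 bp of a tRNA, snoRNA or snRNA gene. With summits near such genes left out, 2034 of the 2097 genes with a promoter peak still had one. The peaks were 316 bp wide except those of vha-13 (122 bp) and vps-60 (181 bp), and that of vha-14, which was narrower still. These are the 3 of highest signal. For 8 of the 19 genes the peak was also in the window of another protein-coding gene (42.1%), against 51.9% of all genes with a promoter peak, and such a peak cannot be assigned to 1 gene. Besides those named above, vha-8 shared its peak with C17H12.2 and vps-24 with eif-1, a translation initiation factor gene, and pigb-1. Just outside the window, vps-16 had a thresholded summit 1284 bp upstream and vha-2 one 1352 bp upstream. The one upstream of vha-2 is the vha-1 peak itself and not a further peak.

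Peaks were more frequent at members whose nearest upstream gene is divergent. Divergent genes were counted together at any gap, and the share was not split by distance. The gap was 7724 bp at vha-14, 4337 bp at vha-12 and 4030 bp at vha-16, so divergent here does not mean a shared promoter. Of 23 members whose nearest upstream gene lies on the other strand, 12 had a promoter peak (52.2%), whereas 5 of 26 whose upstream gene lies on the same strand had one (19.2%). Over all protein-coding genes the shares were 15.8% of 8420 and 6.56% of 10157, so the order was the same. The complexes differ in this arrangement. Of the 11 ESCRT genes named vps 7 were divergent, 5 of them with a peak, and 3 were in tandem, 2 of them with a peak. Of the 8 HOPS and CORVET genes 3 were divergent, 1 with a peak, and 4 were in tandem with a gap under 500 bp, 0 with a peak. Of the 9 V1 genes 4 were divergent, 3 with a peak, and of the 9 V0 genes 6 were divergent, 2 with a peak. The part of arrangement in the differences between complexes was not tested.

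**Figure D5:**
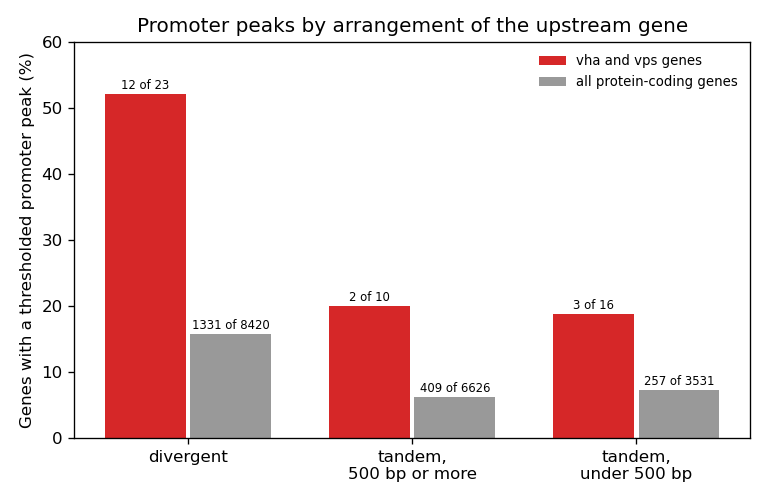
Bars give the percentage of genes with a thresholded promoter peak by the strand and distance of the nearest upstream protein-coding gene, for vha and vps genes and for all protein-coding genes, with counts above each bar. Divergent members stand at 52.2% and tandem members at 20% and 18.8%; the 2 members whose 5′ end lies inside another gene are not drawn.

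Several members without a peak of their own lay behind a gene that had one. Worm genes in close tandem are often transcribed together as operons from a promoter before the first gene. The annotation used here does not mark operons, so runs of same-strand genes with gaps under 500 bp were followed to their first gene, a count made after the peaks had been seen. Of the 13 members in such a run with no thresholded promoter peak of their own, the first gene had one in 6 cases (46.2%), against 20.3% of 3274 such genes overall. Of the HOPS and CORVET genes these were vps-16 behind txdc-9 (signal 59.9, gap 93 bp), vps-11 in the run of npp-19 (33.8), vps-8 behind tag-335 (31.3, gap 90 bp) and vps-41 behind Y34B4A.2 (29.4, gap 111 bp). The others were vha-2, 400 bp behind vha-1 with its signal of 67.7, and vha-20 behind sym-4 (73.1, gap 133 bp). Transcripts were not measured, so whether a member is transcribed from these upstream promoters was not tested. vha-3 and vha-11, in tandem 892 bp apart, had no thresholded summit at either gene.

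Other genes of the same pathways, taken from a list that does not use the names vha or vps, were examined as well, and 12 of 29 had a promoter peak (41.4%, Wilson 95% limits 25.5 and 59.3%), where 10.5% of all genes had one. Of 5 genes for endosome identity and fusion 4 had one. The small GTPase genes rab-7, of late endosomes, and rab-5, of early endosomes, had pooled signals of 84.7 (ranks 133 and 190 in the replicates) and 66.8 (911 and 152). Their summits lay far from the 5′ end, at -784 and -709 bp where negative is upstream, and so outside a window of 500 bp. ccz-1, which with sand-1 exchanges the nucleotide of RAB-7, had 83.5 (92 and 441), and spe-39, which works with vps-33.2, had 53.2 (2561 and 260). sand-1 had no thresholded promoter peak.

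Among the V-ATPase regulators rbc-2, a rabconnectin gene, had a pooled signal of 50.3, and rbc-1 no thresholded peak. Of the ESCRT genes not named vps 2 of 7 had a peak, chmp-7 with 55.8 and alx-1 with 34.5, while tsg-101, hgrs-1, stam-1, did-2 and mvb-12 had no thresholded one. Of the 4 genes linked to the retromer, snx-1 had 51.99 and snx-3 had 27.5, at rank 2718 of the 2720 thresholded peaks. ppk-3, for the kinase that makes a phosphoinositide of lysosomes, had 30.6, clh-6, a lysosomal chloride channel gene, had 30.2, and hlh-30 had 31.3 but ranked 1101 in replicate 1 and 6690 in replicate 2. The lysosomal membrane and content genes lmp-1, lmp-2, cup-5, laat-1, ncr-1 and cpl-1 had no thresholded promoter peak. The 2 listed names let-512 and ostm-1 were not matched in the annotation.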

How the data were processed

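Per the deposited text listings, the authors called relaxed peaks against a control alignment for each of 2 biological replicates and for both pooled, and derived from these a thresholded list by the irreproducible discovery rate. The deposited signal score, the −log10 q-value and the summit offset of each peak in build ce11 were used as given. For the aligner and the caller, names and parameters were not given in the sources used here. Signal tracks, the control and the ce10 lists were not analysed here. Peaks on the mitochondrial genome were left out, and ranks run over the nuclear peaks of a list.

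Genes and 5′ ends came from the Ensembl annotation of WBcel235, and no ce11 peak lay past the end of a chromosome of the RefSeq copy of that assembly. A replicate's peak was matched to a thresholded one by overlap of at least 1 bp and the nearest summit. Among all 19973 genes, 200 planted summits were recovered for 200 genes on simulated data with 0 genes misassigned. Calculations used Python 3.11.15, numpy 2.4.6, pandas 2.3.3, scipy 1.17.1 and matplotlib 3.10.9.

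The members, the complexes, the other genes and the sites were chosen with earlier results of these data known. Named were all members with a thresholded promoter peak, the 6 strongest without one, members with none in any list, neighbours that share a peak, and listed other genes with one. Further names were added after their values were seen. The listed name vps-32.2 was not matched in the annotation. Alternatives changed the window, the 5′ end, the threshold, the assignment and the replicate. Tests were not run, since there is 1 group.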

Additional observations from a re-analysis of the deposited data

How the results depend on the processing

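The number of members with a promoter peak, 19, ran from 15 to 25 over 12 alternatives, and their share from 3.04 to 4.85 times that of all genes. Using each replicate alone gave 18 to 21 members, with 7 vha genes in both cases and 11 to 14 vps genes. No promoter peak was lost with the 5′ end of any transcript or, an alternative chosen after seeing the data, without summits near tRNA, snoRNA and snRNA genes. When the peak interval had only to overlap the window by 1 bp, no member could be lost, and none was gained. A narrower window, 500 bp before to 100 bp after the 5′ end, lost vha-13 and vps-22. A wider one reaching 2000 bp upstream added vps-16, and also vha-2 through the peak already counted for vha-1. Assigning each peak to the nearest 5′ end only lost vha-8, vps-22 and vps-51, and the start codon lost vps-22. The stronger part of the thresholded list, split at its median rank, lost vha-16, vps-4, vps-28 and vps-33.2, and taking each pooled peak of highest q added the 6 members just under the threshold. Requiring the strongest peaks of both replicates, also chosen after seeing the data, lost vha-16, vps-24 and vps-28. V0 then had 1 gene, as it did without replicate 1 and in the stronger part of the list, where HOPS and CORVET also had 1. Within 100 bp of the summit the AP-1 site lay at 4 member summits in place of 1. GAGAGA then lay at 6 in place of 4 and GCGCGC at 5 in place of 4. In that wider window the AP-1 site was at 20% of member summits, against 7.059% of all thresholded summits. For GAGAGA the shares were 30% against 42.0%, so members stayed below the whole list, and for GCGCGC they were 25% against 10.4%. These differences were not tested, and shares over promoter summits alone were not counted at this width. The signal of the strongest promoter peak moved in 7 of 108 comparisons with another window, 5′ end or assignment. It rose from 30.6 to 47.2 for vha-16 with the wider window or with overlap of the peak interval by 1 bp. For vps-25 it rose from 39.5 to 52.4 with the 5′ end of any transcript or the start codon. For vps-4 it rose from 35.6 to 40.3 with the wider window. For vps-32.1 it fell from 41.7 to 27.7 with the narrower window or the nearest 5′ end only. No paired analysis was possible because there is 1 group. With 2 replicates and unknown read depth, the error of a single signal value could not be given.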
